A study of Mus musculus with 8 samples.

Results

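TRBV12-1, TRBV12-2, TRBV15, TRBV16 and TRBV26 are mouse T-cell receptor (TCR) β-chain variable segments, known by their older names as Vβ5.2, Vβ5.1, Vβ12, Vβ11 and Vβ3. They were chosen by name as segments known for their reaction to endogenous superantigens, and every deposited β-chain clonotype whose V segment carried one of these names was taken. Of the 24 V segments in the 8 β-chain libraries, these 5 held 19917 of 80000 reads (24.9%) and 15757 of 60131 clonotypes (26.2%). A clonotype here is a CDR3 nucleotide sequence with its V and J segments in 1 mouse, and the CDR3 is the loop, built where the V, D and J segments are joined, that touches the bound peptide.

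The 8 libraries came from female C57BL/6 mice, 6 to 8 weeks old, that bore B16-F10 melanoma. On day 3 each mouse was lymphodepleted with cyclophosphamide (CTX) at 300 mg/kg. Pmel-1 CD8+ T cells, whose TCR transgenes recognise the melanoma protein gp100, were transferred on day 5 and supported with daily interleukin-2. The CTXpre group (labelled CTX) had 3 mice, and the CTXpre/CD4post group (labelled CTX_CD4) had 5 mice that were also injected with 200 μg of the CD4-depleting antibody GK1.5 on days 10, 17 and 24. On day 25, endogenous CD8+ T (en-T) cells, sorted as Thy1.1-negative so as to leave out the transferred Pmel-1 cells, were taken from the inguinal lymph nodes and spleen, and 1 β-chain library was made per mouse. Both groups carried the tumor, the drug and the transferred cells, and differed by the anti-CD4 antibody. TRBV14, the V segment of the Pmel-1 receptor, held 3.99% to 6.43% of the reads, with overlapping groups.

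A superantigen binds the outer face of the Vβ domain and the class II MHC molecule, and so engages T cells by their V segment with little regard to the CDR3. Mice inherit such proteins from proviruses of mammary tumor virus, and in strains that carry the matching proviruses and express the class II molecule I-E, developing T cells with Vβ3, Vβ5, Vβ11 or Vβ12 are deleted in the thymus. C57BL/6 mice express no I-E molecule, and in this strain these V segments are retained in the mature T-cell pool. Vβ5.1 and Vβ5.2 are also well known among CD8+ T cells, since the much used OT-I receptor carries a Vβ5 chain.

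The 5 segments lie on the forward strand of chromosome 6 (GRCm38), within the TCRβ locus. By the GENCODE vM21 annotation, TRBV12-1 spans chr6:41113550-41114067, TRBV12-2 chr6:41118851-41119364, TRBV15 chr6:41141188-41141658, TRBV16 chr6:41151740-41152230 and TRBV26 chr6:41227505-41227993. The first 4 lie within 38.68 kb, and TRBV26 starts 75.275 kb further on. The protein-coding exon that carries the V domain ends in the first bases of the CDR3. These germline ends, from the codon of the conserved cysteine, are shown because the CDR3 sequences printed below start from them:
TRBV12-1 germline end: tgtgccagctctctc
TRBV12-2 germline end: tgtgccagctctctc
TRBV15 germline end: tgtgccagcagtttagc
TRBV16 germline end: tgtgcaagcagcttaga
TRBV26 germline end: tgtgccagcagtctgtc
The TRBV12-1 and TRBV12-2 ends are identical, and their whole second exons differ at 32 of 293 bases (89.1% identity). TRBV15 and TRBV16 are the next closest pair at 72.9%. Directly after each end lies the recombination signal, the DNA element cut by the RAG recombinase, made of a heptamer, a spacer and a nonamer (in capitals):
TRBV12-1 signal: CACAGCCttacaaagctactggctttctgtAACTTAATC
TRBV12-2 signal: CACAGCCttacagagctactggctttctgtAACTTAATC
TRBV15 signal: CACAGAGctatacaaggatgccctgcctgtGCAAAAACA
TRBV16 signal: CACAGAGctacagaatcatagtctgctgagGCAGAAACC
TRBV26 signal: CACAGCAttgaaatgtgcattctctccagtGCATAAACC
The Vβ5 signals share the heptamer and the nonamer. The textbook heptamer CACAGTG was present in none of the 5 signals and in 8 of 22 V segments examined (36.4%), and the textbook nonamer ACAAAAACC in none of the 5 and in 1 of 22 (4.55%), read on the coding strand directly after the exon. A match or its absence is a description of these letters.

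Every β-chain library held exactly 10000 reads after down-sampling and 5671 to 8529 clonotypes. The values are shares of RNA, so fewer cells with a V segment and less receptor RNA per cell cannot be told apart. CTXpre/CD4post replicates 1 and 2 stood apart in that they shared 34 nucleotide clonotypes of the 5 segments, against 2 to 15 in the 27 other pairs of mice. Of the 100 most abundant clonotypes of replicate 1, those with 1 of the 5 segments accounted for 5 reads in replicate 2. The comparisons between groups and of each segment with the rest of its library were therefore also made without replicate 1 and without replicate 2. Calls of J partners that this changed are given below.

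The share of each segment was in the same order in every mouse. TRBV16 was the highest with 10.3% ± 1.67 of the reads (SD, n = 8), followed by TRBV12-1 with 7.34% ± 0.606, TRBV12-2 with 3.78% ± 0.592, TRBV15 with 2.25% ± 0.338 and TRBV26 with 1.23% ± 0.232. No neighbours in this order overlapped across the 8 mice, although the lowest TRBV12-2 share (2.84%) and the highest TRBV15 share (2.77%) were close. Among the 24 segments, TRBV16 ranked 3 and TRBV12-1 ranked 4 by total reads, whereas TRBV12-2, TRBV15 and TRBV26 ranked 15, 17 and 19.

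Whether CD4 depletion changed the use of these segments was examined in the reads per segment. TRBV12-1 had 720, 808 and 732 reads in the CTXpre mice and 644, 780, 725, 660 and 799 reads in the CTXpre/CD4post mice, in the order of replicate numbers. At 10000 reads the 7.2% of the first mouse had a Wilson 95% interval of 6.71% to 7.72%, which covers counting error only. The groups overlapped, and the fold change was −0.15 ± 0.10 on the log2 scale (SE, edgeR quasi-likelihood test, adjusted p = 0.46).

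TRBV12-2 had 434, 423 and 314 reads in the CTXpre mice and 445, 397, 384, 339 and 284 in the CTXpre/CD4post mice. The highest and the lowest of the 8 values both belonged to the CTXpre/CD4post group, and the log2 fold change was −0.17 ± 0.16 (SE, edgeR, adjusted p = 0.52). TRBV15 had 194, 277 and 253 reads against 247, 237, 200, 209 and 180. Its log2 fold change was −0.26 ± 0.15 (SE, edgeR, adjusted p = 0.43), with 1 CTXpre mouse near the bottom of the other group.

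TRBV16 had 988, 1193 and 1146 reads in the CTXpre mice and 852, 905, 1311, 986 and 871 in the CTXpre/CD4post mice. Replicate 3 of the CTXpre/CD4post group was the highest of all 8 mice, while its 4 group mates were below all 3 CTXpre mice. The log2 fold change was −0.26 ± 0.15 (SE, edgeR, adjusted p = 0.43). Without replicate 3 of the CTXpre/CD4post group, TRBV16 was lower by −0.40 on the log2 scale with an adjusted p of 0.0185 (edgeR). Of the 8 fits with 1 mouse left out, only this 1 called TRBV16, and the estimates ran from −0.40 to −0.15. Without all clonotypes of 10 or more reads TRBV16 was lower by −0.30 with an adjusted p of 0.0210. The call thus changed with replicate 3 and with the large clonotypes. TRBV26, the rarest of the 5, had 108, 89 and 166 reads against 134, 124, 108, 116 and 135, with a log2 fold change of −0.06 ± 0.19 (SE, edgeR, adjusted p = 0.80) and the CTXpre mice at both ends of the range.

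**Figure D1:**
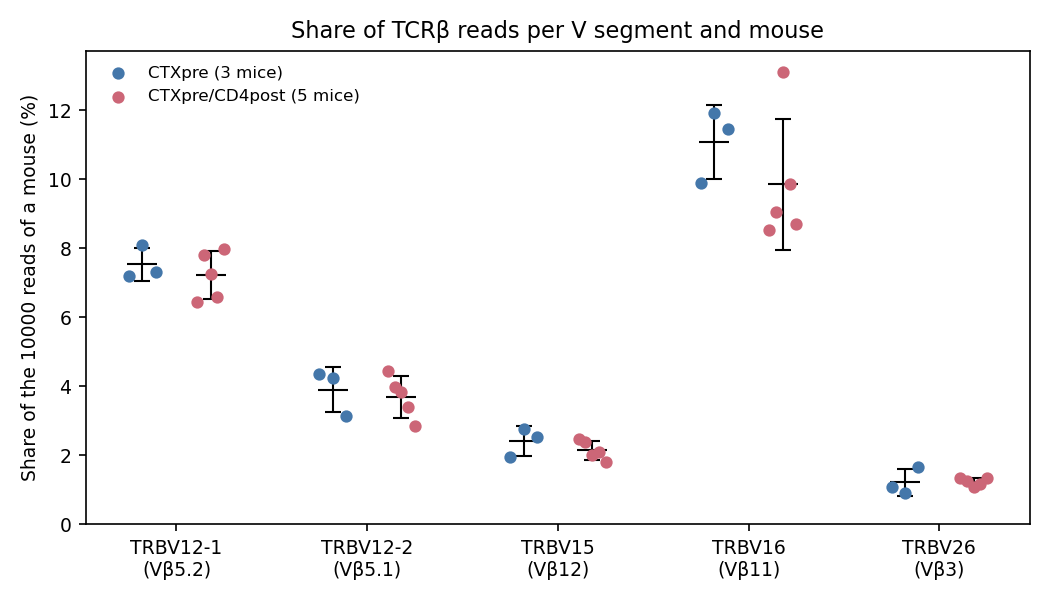
Share of the 10000 β-chain reads of each mouse (y axis, percent) held by each of the 5 V segments (x axis), with 1 point per mouse and bars at the mean ± SD of 3 CTXpre and 5 CTXpre/CD4post mice. The groups overlapped in each segment, and the TRBV16 point at 13.1% is CTXpre/CD4post replicate 3.

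None of the 5 segments was called in this comparison, beside 4.35% of the 23 V segments tested (1 segment, TRBV17). At an unadjusted p under 0.05 the numbers were 0 of 5 and 3 of 23. All 5 estimates were below 0, with a median of −0.17, against 12 of all 23 segments below 0 and a median of −0.04. The sign of TRBV26 depended on the scaling: it was above 0 with DESeq2 and with library size alone. Together the 5 segments held 26.2% ± 1.73 of the reads in the CTXpre group (SD, n = 3) and 24.1% ± 1.87 in the CTXpre/CD4post group (SD, n = 5), with ranges of 24.4% to 27.9% and 22.7% to 27.3%.

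**Figure D2:**
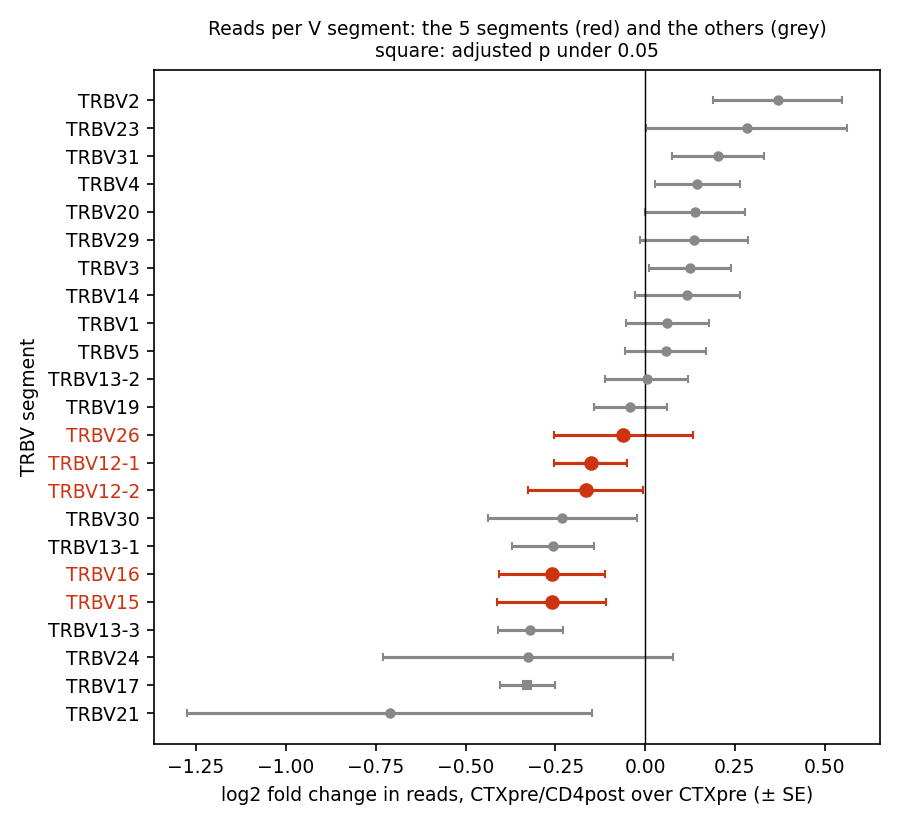
Log2 fold change in reads, CTXpre/CD4post over CTXpre (x axis, with SE), of the 23 V segments tested in edgeR (y axis), the 5 segments in red and the others in grey, a square marking an adjusted p under 0.05. The 5 red points lie between −0.26 and −0.06, and none is a square.

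Segments of Vβ6, Vβ7, Vβ8.1 and Vβ9 (TRBV19, TRBV29, TRBV13-3 and TRBV17) are known to react to the superantigen of another endogenous provirus. They were taken as a further list of superantigen-reactive segments, which is not meant to be complete. Of these 4, 1 was called and 3 had estimates below 0. TRBV17 was lower in the CTXpre/CD4post group by −0.33 ± 0.08 on the log2 scale (SE, edgeR, adjusted p = 0.0269), and TRBV13-3 had −0.32 ± 0.09 with an adjusted p of 0.0575. The number of V segments called was 0 under most other settings, as the closing section gives.

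As a description over 8 mice of libraries with a fixed total, TRBV12-1 varied most like TRBV19 (Pearson r = 0.61) and TRBV13-3 (r = 0.39), TRBV12-2 like TRBV13-2 (r = 0.64) and TRBV13-1 (r = 0.42), and TRBV15 like TRBV13-1 (r = 0.55) and TRBV12-2 (r = 0.37). TRBV16 varied most like TRBV13-3 (r = 0.52) and TRBV24 (r = 0.46), and TRBV26 like TRBV30 (r = 0.69) and TRBV29 (r = 0.39). TRBV12-1 and TRBV12-2 were not among each other's closest segments. The strongest opposite pattern of TRBV16 was with TRBV31 (r = −0.83).

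The J partners of the 5 segments were compared next. During recombination a V segment is joined through D to 1 of 12 J segments found here, 6 in the TRBJ1 cluster and 6 in the TRBJ2 cluster. TRBJ2-7 was the most used partner of each of the 5 segments, with 24.3% ± 2.00 of TRBV12-1 clonotypes, 24.0% ± 2.36 of TRBV12-2, 26.4% ± 2.50 of TRBV15, 21.8% ± 1.45 of TRBV16 and 19.8% ± 4.73 of TRBV26 (SD, n = 8 mice). In the 19 other V segments together it was 21.4% ± 0.806. Clonotypes rather than reads were counted, so that a large clonotype weighed as much as a small clonotype.

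To ask which V-J combinations stood apart, the share of each J among the clonotypes of a segment was compared, within each mouse, with its share among all other clonotypes of that mouse. Of the 60 combinations of the 5 segments, 21 were called (limma, Benjamini-Hochberg adjusted p under 0.05), beside 31.7% of the 240 combinations of 20 V segments tested. The 5 segments thus had called combinations at about the background share. Of the 21, 10 were higher (14.2% of all tested) and 11 lower (17.5%). With clonotypes weighted by their reads, 14 of the 21 were still called. With clonotypes of 2 or more reads only, 5 of the 21 were still called, and 9, those of TRBV15 and TRBV26, were not tested because too few clonotypes were left. The 5 were TRBV12-1 with TRBJ1-1, TRBJ1-2 and TRBJ2-5, TRBV12-2 with TRBJ2-5 and TRBV16 with TRBJ1-6. Between 16 and 19 of the 21 were called with each mouse left out, and the sign was kept wherever a combination was tested. V segments of 1 library share its total, so the combinations are not independent of each other.

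TRBV12-1 had 6 called partners. Its share of TRBJ1-2 was higher than in the other clonotypes by 3.58 ± 0.62 percentage points (SE, limma, adjusted p = 0.00164), of TRBJ2-1 by 2.90 ± 0.39 (adjusted p = 0.00055) and of TRBJ2-7 by 2.69 ± 0.65 (adjusted p = 0.0113). Its partners TRBJ1-1, TRBJ2-5 and TRBJ1-5 were lower, by −3.76, −3.34 and −1.68 percentage points. The TRBJ2-1 difference missed the threshold when weighted by reads (1.65, adjusted p = 0.0749). With clonotypes of 2 or more reads only, TRBJ2-1 (2.22, adjusted p = 0.327), TRBJ2-7 (4.11, adjusted p = 0.0745) and TRBJ1-5 (−1.08, adjusted p = 0.395) missed it. TRBV12-2 had 4 called partners, with TRBJ2-5 higher by 4.50 ± 0.64 (SE, limma, adjusted p = 0.000654), TRBJ2-7 higher by 2.29, and TRBJ2-1 and TRBJ1-6 lower by −2.60 and −1.16. With clonotypes of 2 or more reads only, TRBJ2-7 (4.05, adjusted p = 0.137) and TRBJ2-1 (−3.15, adjusted p = 0.451) missed the threshold. TRBJ1-6 did too (−1.09, adjusted p = 0.569). TRBJ2-1 and TRBJ2-7 also missed it when weighted by reads (adjusted p = 0.0598 and 0.0817). With 1 mouse left out, TRBV12-2 with TRBJ2-7 was called only without CTXpre replicate 3 or CTXpre/CD4post replicate 3 (limma, adjusted p = 0.0447 and 0.0117). Without CTXpre/CD4post replicates 1 and 2 its adjusted p were 0.0698 and 0.0850. TRBV12-2 with TRBJ1-6 missed the threshold without CTXpre replicate 1 (adjusted p = 0.0501).

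TRBV15 was joined more often to TRBJ2-7, by 4.62 ± 0.93 percentage points (SE, limma, adjusted p = 0.00439), and to TRBJ2-3, by 1.97. It was joined less often to TRBJ2-5 (−3.26), TRBJ1-2 (−2.06) and TRBJ1-6 (−1.11). With 1 mouse left out, its TRBJ2-3 was called only without CTXpre replicate 1 or 3 (limma, adjusted p = 0.0464 and 0.0101). Its TRBJ1-6 was called only without CTXpre replicate 2 or CTXpre/CD4post replicate 3 or 5 (adjusted p = 0.0271, 0.0388 and 0.0290). TRBJ2-3 and TRBJ1-6 had adjusted p of 0.0749 and 0.0698 without CTXpre/CD4post replicate 1, and of 0.0952 and 0.0702 without replicate 2. TRBV16 had 2 called partners, with TRBJ2-4 higher by 2.30 ± 0.53 (SE, limma, adjusted p = 0.00779) and TRBJ1-6 lower by −1.86. In TRBV26, TRBJ1-1 was higher by 3.84 ± 0.64 (SE, limma, adjusted p = 0.00164) and TRBJ1-2 by 3.26, whereas TRBJ2-5 and TRBJ2-4 were lower by −3.07 and −2.12. When weighted by reads, TRBV15 with TRBJ2-3 (2.22, adjusted p = 0.0969) and TRBJ2-5 (−2.57, adjusted p = 0.123), TRBV16 with TRBJ2-4 (1.70, adjusted p = 0.161) and TRBV26 with TRBJ2-4 (−1.75, adjusted p = 0.245) missed the threshold. TRBV16 with TRBJ2-4 missed it with clonotypes of 2 or more reads only as well (1.60, adjusted p = 0.497). With 1 mouse left out, TRBV26 with TRBJ2-4 was called only without CTXpre/CD4post replicate 1, 2 or 5 (adjusted p = 0.0347, 0.0261 and 0.0125). TRBV15 with TRBJ1-2 missed the threshold without CTXpre replicate 2 or CTXpre/CD4post replicate 4 (adjusted p = 0.0527 and 0.0515).

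**Figure D3:**
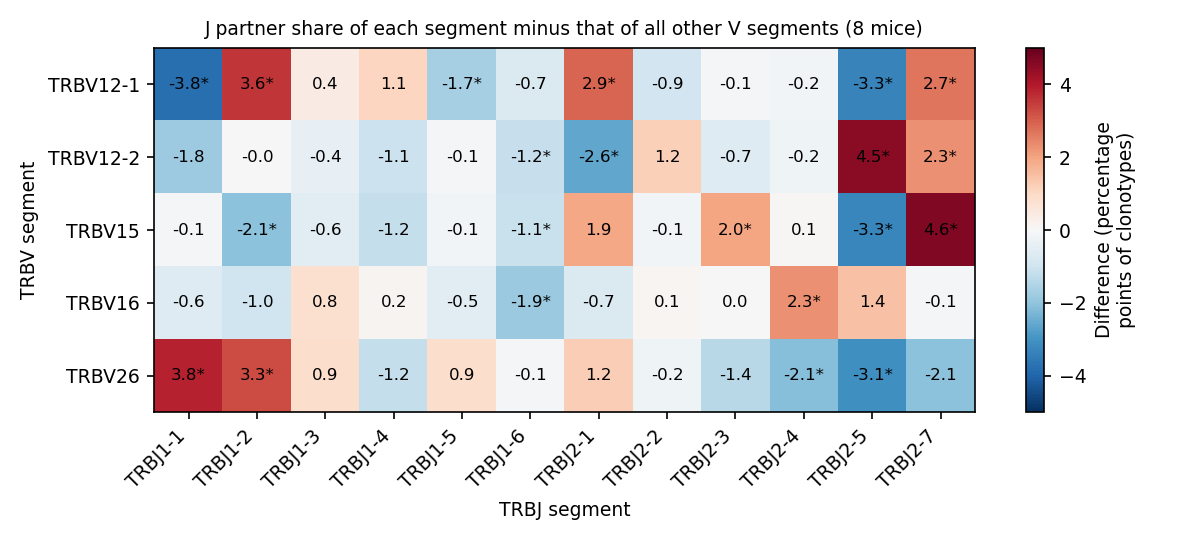
Share of each TRBJ segment (x axis) among the clonotypes of each of the 5 V segments (y axis) minus its share among all other clonotypes of the same mouse, as the mean over 8 mice in percentage points (colour and number), an asterisk marking an adjusted p under 0.05. TRBJ2-5 is at 4.5 in TRBV12-2 and at −3.3 in TRBV12-1.

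The Vβ5 segments share the V end of the CDR3, the heptamer and the nonamer, yet differed in J partners. TRBJ2-5 made up 9.98%, 9.54% and 9.87% of TRBV12-1 clonotypes in the CTXpre mice and 5.53%, 9.09%, 8.16%, 8.61% and 9.32% in the CTXpre/CD4post mice. In TRBV12-2 it made up 17.0%, 15.1% and 14.4% in the CTXpre mice and 13.5%, 15.9%, 18.98%, 17.0% and 17.3% in the CTXpre/CD4post mice. The lowest TRBV12-2 value was thus above the highest TRBV12-1 value.

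The segments were set against each other after their values were seen, a choice that the adjustment below does not cover. TRBV12-1 minus TRBV12-2 was −7.40 percentage points for TRBJ2-5 (SD of the within-mouse difference 1.89, lower in 8 of 8 mice), 5.18 for TRBJ2-1 (SD 1.90, higher in 8 of 8) and 3.32 for TRBJ1-2 (SD 2.11, higher in 8 of 8). Each of these had p = 0.00781 in an exact two-sided sign-flip test over 8 mice, the smallest this test allows, and 0.0313 after adjustment over the 12 J segments. TRBJ1-5 also differed, by −1.49 (exact sign-flip test, adjusted p = 0.0469), being lower in TRBV12-1 in 7 of 8 mice. TRBJ2-7 differed by 0.29 with an SD of 3.82.

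Because TRBV12-1 and TRBV12-2 are similar, reads of either could in principle be named for the other. Each CDR3 nucleotide sequence of a library was listed under a single V segment, 0 of 60131 being under more, so the lists of 1 mouse hold no check on this. Across mice, 64 CDR3 sequences were listed under both, which is 1.42% of those of TRBV12-1 and 2.58% of those of TRBV12-2. How the aligner chose between the segments is not given in the sources used here.

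Between the groups the V-J pairs did not differ by the test. Of the 50 pairs of the 5 segments with enough reads, 0 were called, beside 0% of the 208 pairs tested in edgeR, and DESeq2 also called 0. At an unadjusted p under 0.05 there were 0 of the 50 and 14 of the 208. The pair with the lowest p was TRBV12-1 with TRBJ1-2, which had 61, 64 and 44 reads in the CTXpre mice and 63, 61, 61, 97 and 103 in the CTXpre/CD4post mice (log2 fold change 0.51 ± 0.27, SE, edgeR, adjusted p = 0.67). Replicates 4 and 5 were the highest, and the other 3 CTXpre/CD4post mice lay within the CTXpre range. Of the 97 and 103 reads in replicates 4 and 5, 18 and 43 belonged to 1 amino acid CDR3 described below. TRBV16 with TRBJ1-2 had 36, 40 and 49 reads against 48, 26, 195, 40 and 56, and 153 of the 195 reads were 1 clonotype.

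The V end of the CDR3 was kept whole to different degrees. The end was intact in 34.1% ± 2.49 of TRBV12-1 clonotypes and 35.0% ± 2.44 of TRBV12-2 clonotypes (SD, n = 8), against 14.9% ± 1.11 in TRBV16, 12.03% ± 2.56 in TRBV26 and 3.22% ± 1.67 in TRBV15. The Vβ5 ends are 15 bases long and the others 17, so an intact end is not the same number of bases. Bases between the V and J germline matches numbered 9.62 ± 0.389 in TRBV26, the fewest of the 5, and 10.8 ± 0.242 in TRBV12-2, the most, with 10.1 ± 0.0580 in the 19 other segments. Among clonotypes with an assigned D, TRBD1 made up 69.5% ± 6.98 in TRBV26 against 56.6% ± 1.30 in the other segments and 47.2% to 55.9% in the other members. TRBD1 precedes both J clusters and TRBD2 only the TRBJ2 cluster, and TRBV26 also had the highest share of TRBJ1 partners among the 5, 37.4% ± 3.35 against 30.6% ± 1.25 in the other segments. These junction values are descriptions and were not tested.

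CDR3 length separated the segments within a library. TRBV16 clonotypes had a mean CDR3 of 42.2 ± 0.194 bases (SD, n = 8 mice), which was 0.65 ± 0.08 bases longer than the other clonotypes of the same mouse (SE, limma, adjusted p = 8.68e-07). TRBV12-2, at 41.9 ± 0.266, was longer by 0.31 ± 0.09 (adjusted p = 0.00484), and TRBV15, at 41.0 ± 0.317, was shorter by −0.67 ± 0.10 (adjusted p = 1.73e-05). Such calls were common, being made for 3 of the 5 segments and 80% of the 20 tested, 35% longer and 45% shorter. With clonotypes of 2 or more reads only, TRBV12-2 missed the threshold (0.31, adjusted p = 0.186). TRBV12-1 at 41.5 ± 0.263 and TRBV26 at 41.3 ± 0.638 did not pass (−0.15 ± 0.10, adjusted p = 0.148, and −0.35 ± 0.17, adjusted p = 0.0694). TRBV26 passed with at least 50 clonotypes required in every mouse, where 19 segments were tested (−0.35, adjusted p = 0.0496). It also passed without CTXpre/CD4post replicate 3 (−0.44, adjusted p = 0.0274) and without replicate 5 (−0.44, adjusted p = 0.0288).

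Each of the 5 segments peaked at 14 residues. That length held 36.2% ± 4.87 of TRBV26 clonotypes and 32.8% ± 2.66 of TRBV12-1 clonotypes, against 29.4% ± 0.690 in the 19 other segments. TRBV15 was shifted to 13 residues, with 24.6% ± 4.50 against 18.5% ± 0.281, and had fewer at 15 residues, 17.6% ± 2.79 against 21.8% ± 0.451. All differences were under 1 base in the mean, that is under the length of 1 codon.

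**Figure D4:**
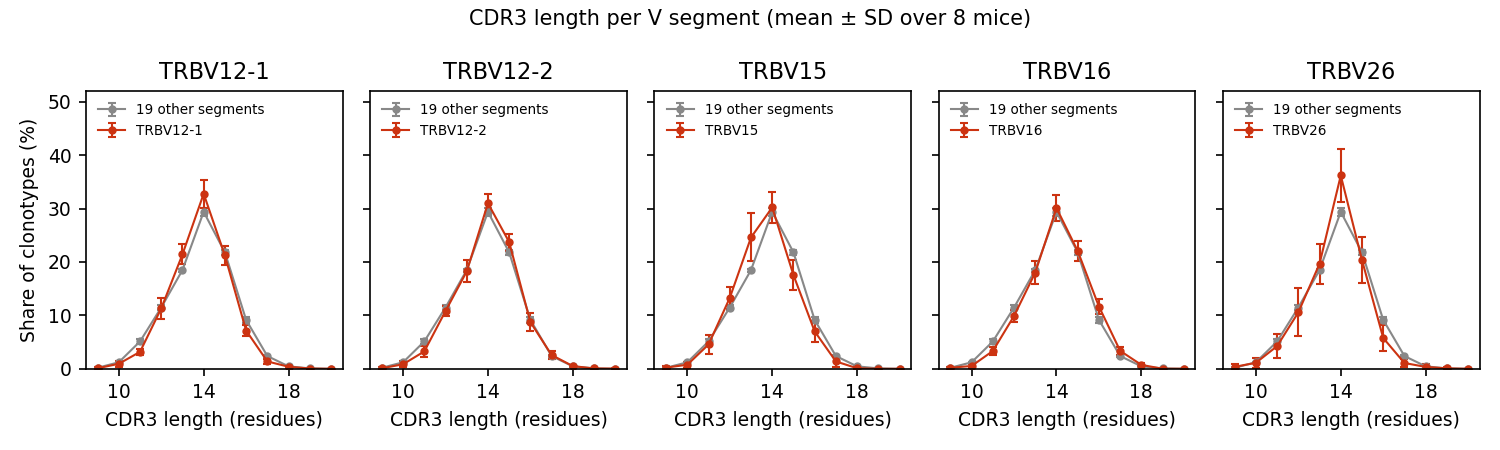
Share of clonotypes (y axis, percent) by CDR3 length in residues (x axis), as mean ± SD over 8 mice, for each of the 5 segments (red) and the 19 other segments together (grey). Each curve peaks at 14 residues, and TRBV15 lies above the grey curve at 13 residues and below it at 15.

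CDR3 length was not called between the groups for any segment. Of the 5 segments, 0 were called, beside 0% of the 20 tested in limma, with 0 and 2 at an unadjusted p under 0.05. The estimates ran from −0.27 ± 0.19 bases in TRBV12-1 to 0.35 ± 0.34 in TRBV26 (SE, adjusted p = 0.695 for both). In TRBV16 the CTXpre mice had means of 42.3, 42.3 and 42.5 bases, and the CTXpre/CD4post mice had 42.4, 42.0, 42.1, 42.1 and 42.1, so that replicate 1 alone lay within the CTXpre range.

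Clonal expansion was read first from the mean number of reads per clonotype, where 1.00 would mean that each clonotype was seen once. Of the clonotypes of the 5 segments, 85.0% had 1 read, against 83.4% over all segments. TRBV12-1 had 1.16, 1.13 and 1.20 reads per clonotype in the CTXpre mice and 1.27, 1.16, 1.23, 1.35 and 2.01 in the CTXpre/CD4post mice. Replicate 5 was far above the rest, and replicate 2 lay within the CTXpre range. The log2 fold change was 0.24 ± 0.14 (SE, limma, adjusted p = 0.20). Here limma gave all 20 segments tested the same SE, a spread shared over segments and not that of TRBV12-1. In the CTXpre/CD4post group the SD of reads per clonotype was 0.346 in TRBV12-1 and 0.139 in TRBV26. Segments of 1 library are linked, so p values from this shared spread can be too small.

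TRBV16 had 1.20, 1.17 and 1.27 reads per clonotype in the CTXpre mice and 1.30, 1.23, 1.47, 1.41 and 1.54 in the CTXpre/CD4post mice, with only replicate 2 inside the CTXpre range (log2 fold change 0.19 ± 0.14, SE, limma, adjusted p = 0.31). In TRBV12-2, TRBV15 and TRBV26 the log2 fold changes were 0.11, 0.12 and 0.15, with adjusted p from 0.396 to 0.424 in limma. None of the 5 segments was called, beside 0% of the 20 tested, and 0 of the 5 and 4 of the 20 had an unadjusted p under 0.05. These numbers rest on the spread that limma shared over the segments. All 5 estimates were above 0 with a median of 0.15, and so were 19 of all 20, with a median of 0.21. The whole library moved in the same direction, from 1.23 ± 0.0477 reads per clonotype (SD, n = 3) to 1.43 ± 0.210 (SD, n = 5). Relative to the library's own mean, TRBV12-2, TRBV15, TRBV16 and TRBV26 had estimates below 0 and TRBV12-1 above it.

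Clonotypes of 10 or more reads were taken as expanded. The 5 segments held 44 of the 262 such clonotypes (16.8%) although they held 26.2% of all clonotypes. The share was 14.3%, 0% and 12.5% in the CTXpre mice, which had only 14, 8 and 8 such clonotypes, and 7.14%, 23.5%, 19.2%, 17.3% and 21.1% in the CTXpre/CD4post mice, in each mouse below the share of all its clonotypes, which ran from 24.3% to 28.7%. The CTXpre libraries held 30 expanded clonotypes in all, 3 of them with these segments, and the CTXpre/CD4post libraries held 232, 41 of them with these segments. In the CTXpre/CD4post mice a low share was not particular to the 5 segments. There the Vβ6, Vβ7, Vβ8.1 and Vβ9 segments held 7 of 42, 4 of 17, 6 of 26, 11 of 52 and 20 of 95. Their share of all clonotypes was higher, at 24.8% to 26.4%. In the CTXpre mice they held 4 of 14, 3 of 8 and 3 of 8, above their 25.5% to 28.0% of all clonotypes.

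By segment, 19 of the 44 used TRBV16, 17 used TRBV12-1, 5 used TRBV12-2, 2 used TRBV15 and 1 used TRBV26. TRBV12-1 had 0, 0 and 0 expanded clonotypes in the CTXpre mice and 1, 0, 2, 2 and 12 in the CTXpre/CD4post mice (p = 0.125 in the exact Mann–Whitney U-test, two-sided, and 0.266 adjusted). The 17 were spread unevenly, with 12 in replicate 5. TRBV16 had 1, 0 and 1 against 0, 4, 3, 5 and 5 (exact test, p = 0.196, adjusted p = 0.334), and TRBV12-2 had 1, 0 and 0 against 1, 0, 0, 1 and 2 (p = 0.679 in the same exact test). None of these 3 was called, beside 0% of the 17 segments tested, with 1 of the 17 at an unadjusted p under 0.05. Without ties, the smallest two-sided p of this exact test for 3 against 5 mice is 0.0357. The lowest p found, with ties, was 0.0179 in TRBV31 (exact Mann–Whitney U-test, adjusted p = 0.266). At such values 1 segment alone cannot pass the adjustment over 17, so the 0 calls say little about the segments. TRBV15 and TRBV26 had too few expanded clonotypes to be tested.

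**Figure D5:**
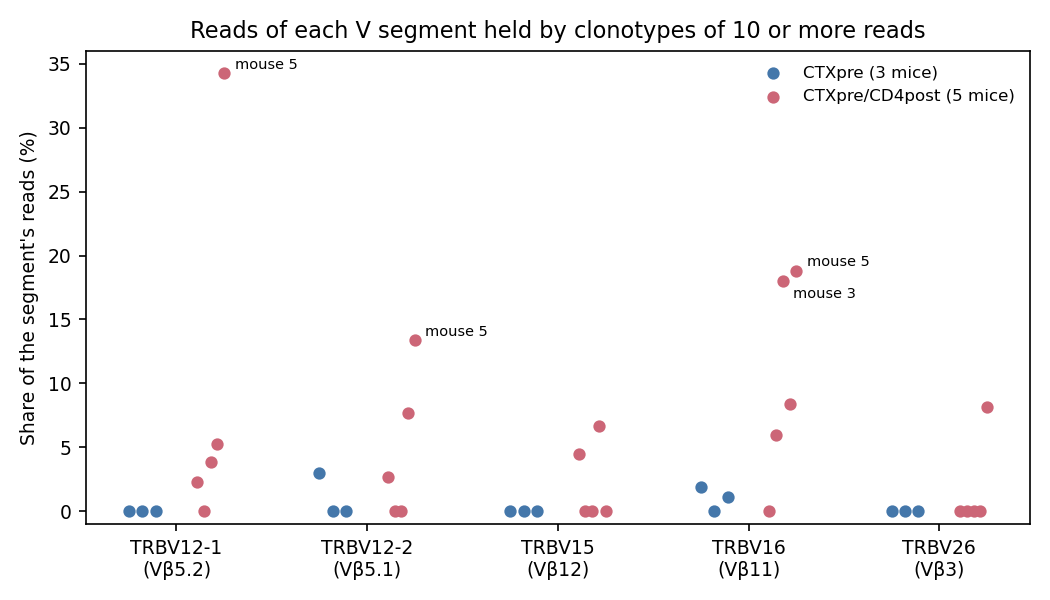
Share of the reads of each segment (y axis, percent) held by clonotypes of 10 or more reads, with 1 point per mouse of the CTXpre (blue, 3 mice) and CTXpre/CD4post (red, 5 mice) groups. The highest point is TRBV12-1 in CTXpre/CD4post replicate 5 at 34.3%, and no CTXpre point is above 3.00%.

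The most abundant clonotypes of TRBV16, TRBV12-1, TRBV12-2 and TRBV26 are shown. Bases that match neither the V nor the J germline end are in capitals, that is the D bases and the added bases that make each receptor distinct:
TRBV16-TRBJ1-2: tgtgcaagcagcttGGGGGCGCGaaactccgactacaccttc
TRBV16-TRBJ2-5: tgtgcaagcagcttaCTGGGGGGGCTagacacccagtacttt
TRBV16-TRBJ2-1: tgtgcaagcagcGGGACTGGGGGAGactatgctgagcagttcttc
TRBV12-1-TRBJ1-4: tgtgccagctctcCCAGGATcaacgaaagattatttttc
TRBV12-1-TRBJ2-7: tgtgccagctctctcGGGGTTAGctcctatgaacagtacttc
TRBV12-2-TRBJ2-4: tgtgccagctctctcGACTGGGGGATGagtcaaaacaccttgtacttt
TRBV26-TRBJ2-1: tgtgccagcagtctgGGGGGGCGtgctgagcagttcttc
The first had 153 reads in CTXpre/CD4post replicate 3, 1.53% of that library (Wilson 95% interval 1.31% to 1.79%) and 11.7% of its TRBV16 reads, and the second had 69 reads in the same mouse. Expanded clonotypes held 236 of the 1311 TRBV16 reads of that mouse. In replicate 5 the TRBV16-TRBJ2-1 sequence had 59 reads and the TRBV12-1 sequences had 58 and 43. The TRBV12-2 sequence had 26 reads in replicate 4, and the TRBV26 sequence had 11 reads in replicate 5. The largest TRBV15 clonotype, not shown, joined TRBJ1-1 and had 14 reads in replicate 4, 6.70% of the TRBV15 reads of that mouse.

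In the CTXpre mice the largest clonotypes of these segments were smaller. They were a TRBV16-TRBJ1-1 clonotype of 19 reads in replicate 1, a TRBV12-2-TRBJ2-5 clonotype of 13 reads in the same mouse and a TRBV16-TRBJ2-3 clonotype of 13 reads in replicate 3, while replicate 2 had none above 6 reads. Of the 44 expanded clonotypes, 41 were found in 1 mouse only. The other 3 had 11 to 15 reads in CTXpre/CD4post replicate 1 and 1 read each in replicate 2, the pair of libraries that shared the most clonotypes.

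A single amino acid CDR3 of the 5 segments had 10 or more reads in 2 mice. It joins TRBV12-1 to TRBJ1-2 and is 14 residues long, and it was chosen for these reads, so its values are a description with no test. It had 0, 0 and 0 reads in the CTXpre mice and 0, 2, 4, 18 and 43 reads in the CTXpre/CD4post mice. A count of 0 in 10000 reads allows a share of up to 0.03%, or 3 reads, so the 2 reads lie below this limit, the 4 reads just above it and the 18 and 43 reads well above it. No other V segment carried the same amino acid CDR3 in any mouse.

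This protein sequence was encoded by 10 different nucleotide sequences, each found in 1 mouse only. The 6 with 4 or more reads are shown, again with the bases outside the germline V and J matches in capitals:
replicate 5, 22 reads: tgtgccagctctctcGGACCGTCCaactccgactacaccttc
replicate 5, 16 reads: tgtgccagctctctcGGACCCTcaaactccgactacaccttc
replicate 5, 5 reads: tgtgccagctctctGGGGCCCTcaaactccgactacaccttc
replicate 4, 8 reads: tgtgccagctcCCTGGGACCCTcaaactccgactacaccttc
replicate 4, 8 reads: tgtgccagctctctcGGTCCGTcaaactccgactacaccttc
replicate 3, 4 reads: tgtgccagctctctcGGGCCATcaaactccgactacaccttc
The other 4 had 1 read each, a pair in replicate 2 and a pair in replicate 4. Within a mouse, any of these sequences differed from another at 2 to 4 of 42 bases, and none at a single base. Of the 14548 amino acid clonotypes of the 5 segments, 94.7% had 1 nucleotide sequence, 17 had 5 or more, and only this clonotype had 10. In the other segments the most was 8, among 41599.

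Clonotypes shared between mice were few and small. Of distinct nucleotide clonotypes, 1.71% of TRBV12-1 (77 of 4509), 1.62% of TRBV16 (100 of 6170), 1.17% of TRBV12-2 (29 of 2484), 0.989% of TRBV15 (15 of 1517) and 0.725% of TRBV26 (6 of 828) were found in 2 or more mice, against 1.42% of the other segments. The order followed the number of clonotypes a segment had, except for the first pair. The most widely found, and a TRBV12-1 sequence that is germline throughout, are shown:
TRBV16-TRBJ1-3: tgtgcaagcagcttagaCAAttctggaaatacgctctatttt
TRBV12-1-TRBJ2-7: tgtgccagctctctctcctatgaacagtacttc
The first had 1 read in each of 5 mice, CTXpre replicates 2 and 3 and CTXpre/CD4post replicates 2, 3 and 5. The second, with no base outside the V and J germline matches, had 1 and 3 reads in CTXpre replicates 2 and 3 and 2 reads in CTXpre/CD4post replicate 1. Both had between 0 and 3 bases that were not templated by V or J.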

How the data were processed

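TCRβ repertoires of sorted en-T cells were analyzed in 8 libraries, 1 per mouse; the α-chain libraries were not used here. The deposited counts are reads per clonotype. The authors prepared libraries from RNA with a SMARTer mouse TCR kit (nested PCR) for the MiSeq, trimmed reads with Scythe and Sickle, and called clonotypes in MiXCR (version not given in the sources used here). Chains were separated in VDJtools, and every library was reduced to 10000 reads by down-sampling. The deposited fraction equals count over 10000. No molecular identifiers are named, so intervals cover counting error only. The labels also name bcl2fastq and the build mm10, which is GRCm38.

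The members and lists were chosen with earlier results of these data known. Named items were the 5 segments, their most used J, up to 10 called V-J combinations per test and further called ones after their values were seen, the most abundant and the most widely found clonotypes, amino acid CDR3s with 10 or more reads in 2 or more mice, and the 2 segments most like each. Reads per V segment and V-J pair (at least 10 reads in 3 or more mice) were tested with edgeR 4.0.16 (TMM, quasi-likelihood) in R 4.3.3, with DESeq2 1.42.0 as an alternative. CDR3 length, log2 reads per clonotype and J shares (segments with at least 20 clonotypes in every mouse) were tested with limma 3.58.1, and expanded clonotypes with the exact Mann–Whitney U-test, all with Benjamini-Hochberg adjustment over all features tested. Germline ends and signals were read from GRCm38 with Biopython 1.88 at exons of GENCODE vM21; bases of a CDR3 were matched to them from each end. The edgeR and limma tests were run on simulated data with features drawn independently of each other. Shares of 1 library are linked, and this was not simulated. Replicate numbers did not pair the mice.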

Additional observations from a re-analysis of the deposited data

Results flagged for a closer look

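Of 25 series of 5 CTXpre/CD4post mice examined (5 segments by 5 measures), 6 had a mouse whose gap to its nearest neighbour was above 0.71 of the group's range. For independent values on a continuous scale chance gives about 1 in 20, but the series here are linked: the 3 of TRBV12-1 describe the same clonotypes, and the 2 of TRBV26 are 0 in 4 mice, so that any other value in the remaining mouse passes. Of the 6, 5 were in replicate 5. In TRBV12-1 that mouse had 2.01 reads per clonotype (next 1.35), 12 expanded clonotypes (next 2) and 34.3% of the segment's reads in them (next 5.30%). Its whole library also had the fewest clonotypes (5671) and 23.5% of its reads in expanded clonotypes, against 3.38% to 9.12% in its group mates, and the part of this in the TRBV12-1 values was not tested. In TRBV26 the same mouse had the only expanded clonotype, 1 of 11 reads, which held 8.15% of the segment's reads. In TRBV16, replicate 1 had a mean CDR3 of 42.4 bases (next 42.1).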

How the results depend on the processing

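The number of V segments called between groups was 1 of 23. It was 0 with DESeq2, with DESeq2 size factors, with library size alone and with no filter. It was also 0 with clonotypes in place of reads and with TRBV12-1 and TRBV12-2 as 1 segment. It was 3 without clonotypes of 10 or more reads, and 0 to 3 with each mouse left out. The exact Mann–Whitney test called 0 too, but without ties its smallest two-sided p for 3 against 5 mice is 0.0357. At that p 1 segment alone cannot pass the adjustment, so this 0 says little about the processing. TRBV26 had log2 fold changes above 0 with DESeq2 (0.0025), its size factors (0.0024), library size alone (0.028), clonotypes (0.069) and without clonotypes of 10 or more reads (0.043); with each mouse left out it ran from −0.19 to 0.30, and its mean was higher by 2.4 reads in the Mann–Whitney comparison. V segments called for reads per clonotype numbered 4 with clonotypes of 2 or more reads only, 1 relative to the library mean and 0 to 5 with each mouse left out (5 without CTXpre/CD4post replicate 2, 1 without replicate 3), none of them among the 5 segments. Relative to the library mean, TRBV12-2, TRBV15, TRBV16 and TRBV26 had −0.093, −0.088, −0.018 and −0.058. J combinations called fell from 76 to 40 when weighted by reads and to 14 with clonotypes of 2 or more reads only, and ran from 56 to 67 with each mouse left out. CDR3 length calls against the other clonotypes fell from 16 to 8 with clonotypes of 2 or more reads only, where fewer clonotypes and segments were left. Between groups, CDR3 length differences with each mouse left out ran from −0.0087 to 0.16 bases in TRBV12-2 and from −0.17 to 0.65 in TRBV26. The cause of these changes was not tested.

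Replicate numbers did not pair the mice (correlations of deviations −0.69, −0.42 and 0.13); with a replicate block over the 3 shared numbers, TRBV12-2 had a log2 fold change of 0.013, and the counts of calls were 1 V segment and 0 V-J pairs. V-J pair and expanded clonotype counts stayed at 0 in every alternative run. The exact test of expanded clonotypes is limited by its smallest p, as given above. The depth of 10000 reads and, for TRBV26, 86 to 147 clonotypes per mouse limit what could be detected.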
